A study of Homo sapiens with 12 samples.

Results

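Acetylation of lysine 27 on histone H3 (H3K27ac) was compared in human cancer cell lines, and the regions described here are those with a strong H3K27ac peak in BICR31 and no peak in any other untreated line. The series design text places BICR31 among head and neck squamous lines, although its sample label gives lung adenocarcinoma. The other untreated lines are HCC95 (squamous cell lung carcinoma), Ishikawa (endometrial carcinoma), H358 and H2009 (both lung adenocarcinoma). BICR31 and HCC95 had 1 library each, and Ishikawa, H358 and H2009 had 2 libraries each. Besides these, 4 more H2009 libraries (named Empty, Control, e3KRAB1 and e3KRAB2 in their labels) played no part in choosing the regions. All cells were grown in RPMI with serum, and every sample is labelled as having had no treatment.

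The members were found by merging overlapping peaks (1 bp or more) of the 8 untreated lists on chromosomes 1 to 22, which gave 68750 regions. A region was a member when BICR31 had a peak in it, none of the other 7 lists did, and its highest BICR31 −log10 q was at least 3. The q value is the peak caller's p-value after adjustment for the number of places tested, so a higher −log10 q means a lower false discovery rate by the caller's own estimate. This gave 3391 members, or 4.93% of all merged regions and 8.30% of the 40860 regions with a BICR31 peak. A further 11759 regions were found in BICR31 alone but below the threshold, here called weak, and 25710 BICR31 regions had a peak in at least 1 other list, here called shared. BICR31 presence, absence in the other lists and the BICR31 q value chose the members, so widths, folds and q values are given as a description and were not tested. With 1 BICR31 library there is no replicate error, and all intervals below are 95% Wilson intervals for counting error.

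H3K27ac is laid down by the acetyltransferases p300 and CBP and marks promoters and enhancers that are in use. Promoters are often marked in many cell types, while enhancers differ far more between cell types and carry much of the identity of a cell. In squamous epithelium, enhancers marked in this way gather around genes of keratins, cell adhesion and the basement membrane, and are bound by factors such as p63, AP-1 and the grainyhead-like proteins.

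The BICR31 list was the longest of the untreated lists, with 41161 peaks against 22850 to 26474 in the other 7, and 39.8 Mb of called bases against 10.6 to 40.4 Mb. Lists also differed in form: BICR31 and HCC95 had broad peaks, H358 and H2009 narrow peaks and Ishikawa a 5-column form. Read numbers are not part of these lists, so depth is unknown, and a missing peak means that none was called and not that the mark is absent. The part of list length and form in the number of members cannot be told apart from that of the line. The squamous label was checked by BICR31 peaks within 5 kb of the starts of marker genes. BICR31 had such a peak at 5 of 7 squamous markers (KRT5, KRT6A, DSG3, PKP1 and SFN), as against 6 of 7 in HCC95, 1 of 7 in Ishikawa, 1 of 7 in H358 and 2 of 7 in H2009. It had none at the starts used for TP63 and KRT14, although 13 BICR31 regions lay within 50 kb of the body of TP63, the gene of p63. BICR31 also had a peak at the starts of NKX2-1, SFTPC and NAPSA, 3 of the 4 lung adenocarcinoma markers (HCC95 1, Ishikawa 2, H358 3 and H2009 2), and at PAX8, HOXA10 and HOXA11 of the 4 endometrial ones. Of the 4 stromal markers it had a peak at VIM, COL1A1 and COL1A2. For the endometrial and for the stromal markers alike, HCC95 had 2 of 4, Ishikawa 3, H358 1 and H2009 1.

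Members lay at or within 1 kb of the starts of 8 of the 222 genes in the table of gene places used here. Of the 222 starts, 199 had a merged region of any list within 5 kb. Some of the 8, such as SLC2A14 and HOXC13, were in the table as neighbours of leading members or runs, which favours this count. The promoters of 4 of these 8 genes are shown, picked by hand as genes of different kinds. SULF2, an enzyme gene that trims heparan sulfate on the cell surface, begins the longest run of members. JUNB, an AP-1 transcription factor gene, holds the widest member. CXCL5, a chemokine gene that draws neutrophils, had the member of highest fold at a start among the listed genes. S100A9 encodes a calcium-binding protein of stressed and inflamed squamous epithelium. Each line gives 250 bases before and 50 bases after the RefSeq start in GRCh38.p14, read along the gene's strand. Capitals mark matches, on either strand, to a TATA box (TATAAA), a GC box (GGGCGG), a kappa B motif or an AP-1 motif (TGANTCA).
SULF2 (chromosome 20): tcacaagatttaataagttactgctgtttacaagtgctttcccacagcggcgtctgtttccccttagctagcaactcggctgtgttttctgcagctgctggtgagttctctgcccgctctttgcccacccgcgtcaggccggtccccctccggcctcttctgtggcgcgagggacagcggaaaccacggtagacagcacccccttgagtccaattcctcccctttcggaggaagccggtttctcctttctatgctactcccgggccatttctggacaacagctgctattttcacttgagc
JUNB (chromosome 19): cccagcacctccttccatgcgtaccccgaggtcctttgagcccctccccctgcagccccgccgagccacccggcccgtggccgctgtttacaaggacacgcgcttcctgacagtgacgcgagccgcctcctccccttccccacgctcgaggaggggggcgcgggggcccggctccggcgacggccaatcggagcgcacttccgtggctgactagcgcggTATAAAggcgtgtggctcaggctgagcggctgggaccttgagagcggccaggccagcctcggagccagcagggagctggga
CXCL5 (chromosome 4): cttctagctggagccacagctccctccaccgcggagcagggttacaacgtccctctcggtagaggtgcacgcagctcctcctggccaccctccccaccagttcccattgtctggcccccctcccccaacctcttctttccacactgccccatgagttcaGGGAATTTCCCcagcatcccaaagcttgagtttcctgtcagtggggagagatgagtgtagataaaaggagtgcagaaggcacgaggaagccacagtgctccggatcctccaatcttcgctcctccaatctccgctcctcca
S100A9 (chromosome 1): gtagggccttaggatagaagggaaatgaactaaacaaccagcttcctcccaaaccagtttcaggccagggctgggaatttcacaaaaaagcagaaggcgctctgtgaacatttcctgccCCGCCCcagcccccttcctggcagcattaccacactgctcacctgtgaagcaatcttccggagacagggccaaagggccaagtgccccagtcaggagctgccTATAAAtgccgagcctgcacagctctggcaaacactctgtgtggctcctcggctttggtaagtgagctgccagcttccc
JUNB and S100A9 had 1 TATA box each, at positions −31 and −29 from the start, and CXCL5 had overlapping kappa B matches at −91 and −90. S100A9 also had 1 GC box. No AP-1 motif as spelled here was in any of the 7 promoters that could be matched, and the SULF2 window held none of the 4 motifs. Of all 35116 promoters in the same table, 11.5% held the TATA box, 45.0% the GC box, 6.52% the kappa B motif and 7.71% the AP-1 motif. The motifs were chosen, and the spelling of the kappa B motif corrected, with these sequences in view, and a match is a description of letters, not a site. The regions are in hg19 and the promoters in GRCh38.p14, so their overlap was not measured base by base. Promoters were matched by gene symbol, and whether each RefSeq start is the start near the member was not checked. A promoter used here, such as that of SLC2A14, may therefore lie away from its member.

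The SULF2 start lay at or within 1 kb of a member at chr20:46414725-46415330 (606 bp) with a fold enrichment of 3.87 and a −log10 q of 6.12. Folds are the deposited values, and the background they are measured against is not given. BICR31 had 2 regions within 5 kb of this start, and HCC95, Ishikawa, H358 and H2009 had 0. The JUNB member at chr19:12901247-12905065 was 3819 bp wide and spans the gene, but its fold was 2.01 and its −log10 q 3.69. The nearest peak of another list lay 0.915 kb away from it, and HCC95 had 1 region within 5 kb of the JUNB start. The CXCL5 member at chr4:74864110-74864470 (361 bp) had a fold of 5.84 and a −log10 q of 5.62. The S100A9 member at chr1:153329939-153330276 (338 bp) had a fold of 4.66 and a −log10 q of 3.67. Within 5 kb of both of these starts, BICR31 was the one line with a region.

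The other starts belonged to an epidermal protease gene, a grainyhead-like factor gene, a glucose transporter gene and a HOX gene. KLK5, a kallikrein that helps shed skin cells, had a member of 1232 bp at its start with a fold of 4.36. GRHL3, a transcription factor gene of the epidermal barrier, had one of 1095 bp with a fold of 2.62, and HCC95, H358 and H2009 each had 1 region within 5 kb of that start. SLC2A14, a glucose transporter gene, had the member of highest fold in the genome, 8.78. HOXC13, which acts in hair and nail, had one of 252 bp with a fold of 4.21. At KLK5 and SLC2A14 no other line had a region within 5 kb, and at HOXC13 HCC95 had 1.

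The share of BICR31 regions found in BICR31 alone was lower in each band of strength up to a −log10 q of 15. Of regions with a −log10 q from 1 to 2, 6377 of 10089 were found in BICR31 alone (63.2%, 62.3 to 64.1). From 3 to 4 the count was 2114 of 6514 (32.5%, 31.3 to 33.6), from 5 to 7.5 it was 480 of 5088 (9.43%, 8.66 to 10.3), and from 10 to 15 it was 11 of 1516 (0.726%, 0.406 to 1.29). From 15 to 20 there were 7 of 297 (2.36%, 1.15 to 4.78), and at 20 and over 0 of 138, whose upper Wilson bound is 2.71%. Members were therefore 17.3% of the 19611 BICR31 regions at or above the threshold, while 37.1% of BICR31 regions of any strength were found in BICR31 alone. Most members lay near the threshold: 1277 reached 4, 560 reached 5, 80 reached 7.5 and 18 reached 10. The members just inside the threshold had −log10 q values of 3.00083, 3.00084 and 3.00117 with folds of 4.28, 4.04 and 4.25. The weak regions just outside it had 2.99991, 2.99895 and 2.99886 with folds of 3.43, 4.09 and 4.31.

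**Figure D1:**
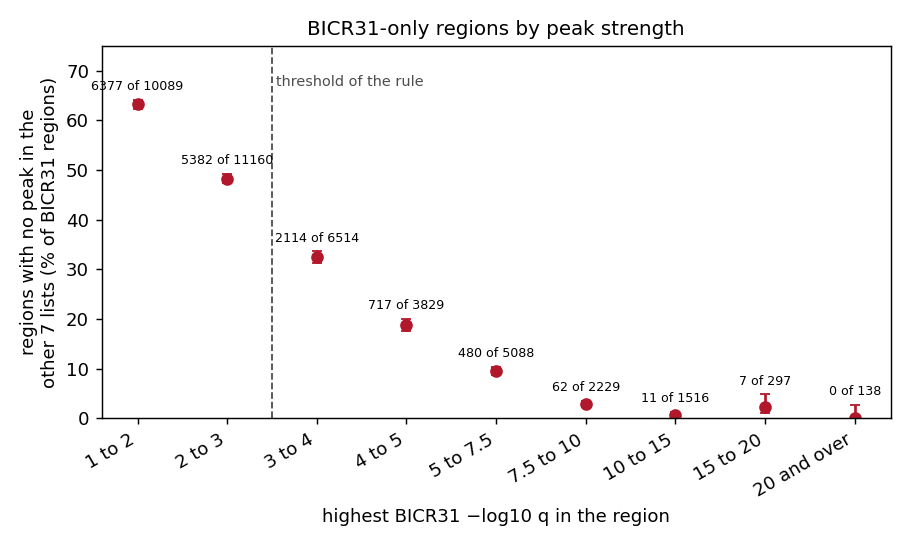
Percent of BICR31 regions with no peak in the other 7 lists, by the highest BICR31 −log10 q in the region; points are shares, bars 95% Wilson intervals, and numbers give regions found in BICR31 alone of all BICR31 regions. The share was 63.2% from 1 to 2, 32.5% from 3 to 4 and 0.726% from 10 to 15, and 0 of 138 regions at 20 and over.

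Members were narrow, with a median width of 699 bp (quartiles 360.5 to 1130 bp) and a range of 211 to 3819 bp. Weak regions had a median of 619 bp, and BICR31 peaks in shared regions at or above the threshold had a median of 1181 bp. Peaks under 400 bp made up 972 of the members (28.7%), 31.7% of weak regions and 7.59% of the BICR31 peaks of those shared regions. At the wide end, 1091 members reached 1000 bp, 92 reached 2000 bp and 6 reached 3000 bp. The width difference held in each band of strength: from 3 to 4 the members' median was 660 bp and the median of called BICR31 bases in shared regions 1056 bp, and from 5 to 7.5 the values were 778 bp and 1271.5 bp. Wider peaks overlap the peaks of other lists more readily, and how far this sets the widths was not tested. Each member held a single BICR31 peak, while 297 shared regions held several.

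The median fold of members lay a little below that of all shared regions at or above the threshold and above that of weak regions. Those shared regions were stronger, with a median −log10 q of 5.23 against 3.70 for members. In each band of strength from 3 to 20, members had the higher median fold. It was 4.26 against 4.15 from 3 to 4 and 4.94 against 4.70 from 5 to 7.5. Members were also narrower in each of these bands, and the part of width in this difference was not tested. Members had a median fold of 4.35 (quartiles 3.96 to 4.66) and ranged from 1.65 to 8.78. Weak regions had a median of 3.45, and shared regions at or above the threshold 4.51 with a maximum of 13.2. Among members, fold fell with width, from a median of 4.51 in those under 400 bp to 4.12 at 1000 to 1500 bp and 3.23 at 2000 bp and over. Spearman's rho between fold and width was −0.45 over members and −0.44 over peaks of shared regions at or above the threshold. These points share 1 library and were all chosen by q, and neighbouring regions are not independent.

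**Figure D2:**
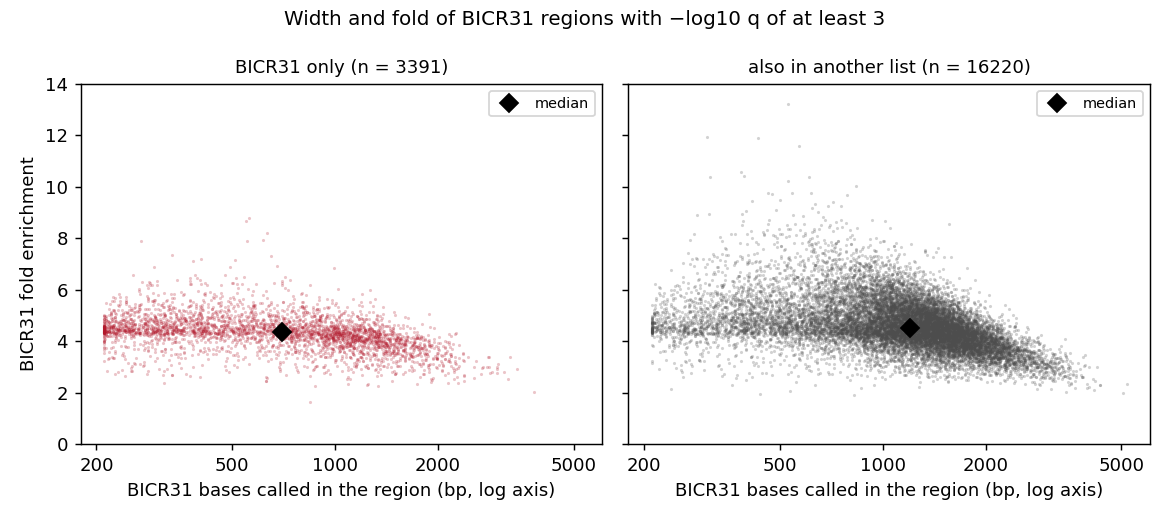
Called BICR31 bases (log axis, bp) against BICR31 fold enrichment for the 3391 members (left) and the 16220 shared regions with a −log10 q of at least 3 (right); each point is a region and the diamond marks the medians. Members centre on a width of 699 bp and shared regions on wider peaks, while the median folds of 4.35 and 4.51 are close.

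The members of highest fold were short peaks of 271 to 651 bp, in or between genes. After SLC2A14 came a member between CNTNAP4, a neuronal adhesion gene, and MON1B, with a fold of 8.65 at chr16:76668885-76669433. A member inside PTPRE, a tyrosine phosphatase gene, had a fold of 8.18 and the highest −log10 q of all members, 19.2, at chr10:129862309-129862941. Inside CDC14A, a cell-cycle phosphatase gene, the fold was 7.95, and inside TTLL1, a tubulin-modifying enzyme gene, 7.89. A member between PAK1, a kinase gene that acts downstream of RAC1, and AQP11 had a fold of 7.33 and a −log10 q of 14.1. Members between TSPAN9, a tetraspanin gene, and PRMT8 and between NPTX1 and RPTOR, the gene of the raptor subunit of mTORC1, had folds of 7.18 and 7.16. By −log10 q, the member next after PTPRE lay between INTS1 and ELFN1 at chr7:1658897-1660161, with 18.9 and a fold of 5.99. Members at chr7:6993019-6993605 and chr7:5160578-5161596 had −log10 q values of 15.8 and 14.7.

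Some of the strongest members lay close to a peak of another list. The PTPRE member lay 0.043 kb from such a region and the TSPAN9 member 0.034 kb, so their membership rests on where a peak was called to end. The ANO1 member, in a chloride channel gene of the 11q13 band, had a −log10 q of 15.9 and lay 0.65 kb from one. By contrast, the SLC2A14 member was 29.9 kb from the nearest region of another list and the CNTNAP4 member 41.2 kb. When a peak of another list within 1 kb also removed a region, 19 of the 24 regions that lead by fold, q or width stayed members. Over all members the median distance to a region of another list was 11.9 kb, near the 12 kb of weak regions and 11.3 kb of shared ones. Within 1 kb of such a region lay 323 members, and 465 had none within 50 kb.

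Members and weak regions lay farther than shared regions from those marked in every list. Members had a median distance of 90.1 kb (quartiles 33.1 to 249 kb) to the nearest region found in all 8 lists, weak regions 96.8 kb and shared regions 68.3 kb. Beyond 100 kb from any such region lay 47.2% of members, 49.2% of weak regions and 39.4% of shared regions. Shared regions exclude themselves from this count where they are in all 8 lists.

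The 10 widest members were 2885 to 3819 bp wide. After JUNB came a 3413 bp member in MAP2K1, the gene of the kinase MEK1, with a fold of 2.93 and a −log10 q of 3.75 at chr15:66751901-66755313. A 3218 bp member lay in the keratin cluster between KRT10 and KRT12 at chr17:39005986-39009203 with a fold of 2.52. Members of 3247 bp between NUCB1 and DHDH and of 3125 bp in SRGAP3, a gene that regulates small GTPases, had folds of 3.38 and 2.82. A 2991 bp member in GNA12, the gene of a G protein subunit that signals to RhoA, had a −log10 q of 5.85. Just beyond the end of WNT10A, a Wnt ligand gene of skin, teeth and hair, a member of 2885 bp had a fold of 2.79 and a −log10 q of 4.68. The others of the 10 widest lay between TMEM120B and SETD1B and in GLP2R and LIPC, with widths of 2976 to 3003 bp.

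Most members stood alone. With members joined when at most 100 kb apart, 2158 (63.6%) had no other member in reach, 802 were in pairs, and 431 were in 125 runs of 3 or more (12.7%, 11.6 to 13.9). The same number of the strongest weak regions gave 10.2% (9.23 to 11.3) in such runs. The same number of the strongest regions gave 19.3% (18.1 to 20.7) for HCC95 alone and 21.7% (20.3 to 23.1) for Ishikawa alone, and the strongest shared BICR31 regions 29.7% (28.2 to 31.3). The members' share lay above that of the weak regions and below that of the other sets when all 8 untreated lists were used. The HCC95 and Ishikawa sets came from 4283 and 3495 regions without a q threshold, and Ishikawa regions needed a peak in both libraries. Members came from 15150 regions found in BICR31 alone at any q, a larger set with 63.1% (62.3 to 63.9) in such runs. These shares therefore do not rank the lines by how closely their own regions gather. Without the HCC95 library, 20.6% of 4417 members were in runs of 3 or more. This larger set cannot be set beside the 19.3% for HCC95 alone, which came from 3391 regions. All 4283 regions found in HCC95 alone, a set nearer in size, gave 22.6% (21.4 to 23.9). Of the 125 runs, 10 had 5 or more members.

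The longest run of members lay on chromosome 20, from the start of SULF2 towards PREX1. It held 14 members in 371 kb at chr20:46414725-46785331, with folds of 3.06 to 5.05 and −log10 q values of 3.52 to 11.8. With them stood 5 weak BICR31 regions. The other 7 untreated lists had 0 peaks in this span, and so had the 4 further H2009 lists. The strongest member of the run, at chr20:46450087-46451082, had a −log10 q of 11.8 and a fold of 4.94, and the one before it, at chr20:46437106-46438994, a fold of 5.05 and a width of 1889 bp. Both lie upstream of SULF2, about 36 and 23 kb from its start. The stretch without any peak of the other lists was longer still, 729 kb, and held 27 neighbouring BICR31 regions, 16 of them members. Elsewhere the longest such row in BICR31 was 12 regions. In the other lines, counted over any library of the line, the longest was 24 in Ishikawa, 11 in H358, 9 in HCC95 and 8 in H2009.

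**Figure D3:**
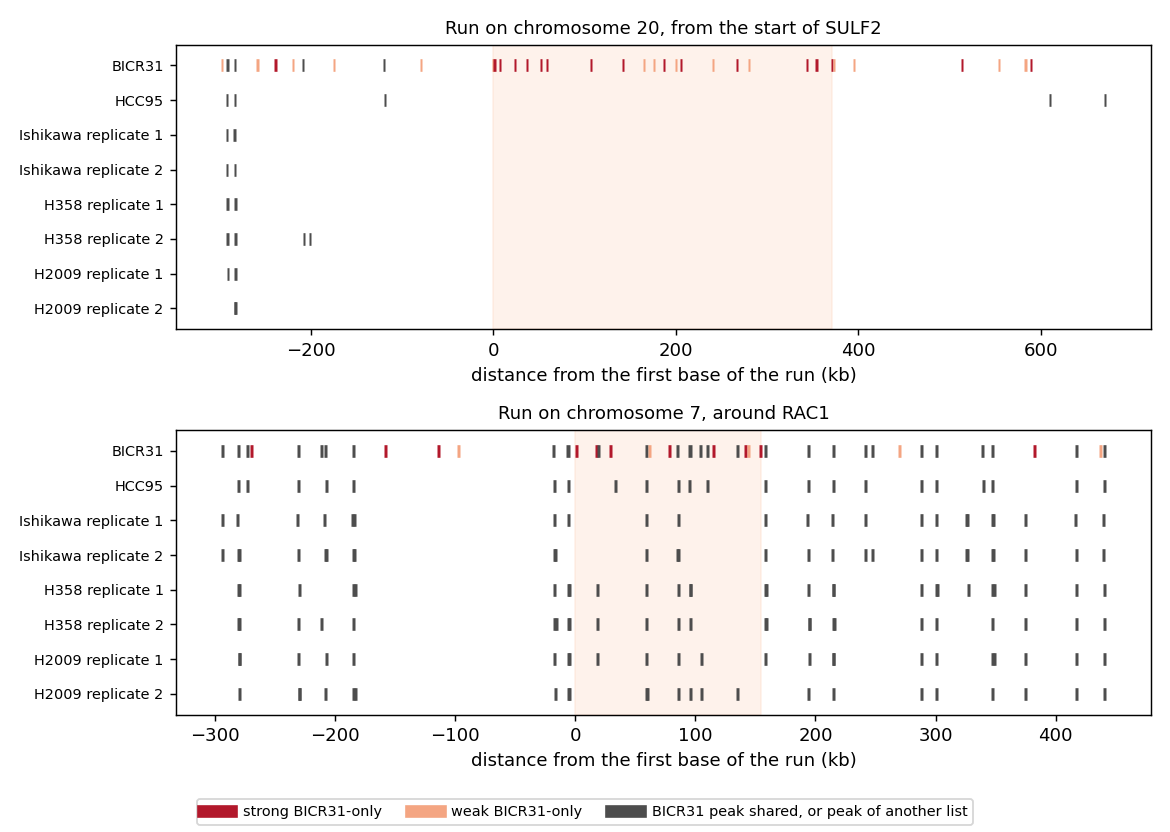
Peaks of the 8 untreated lists along the 2 longest runs (shaded) with 300 kb on each side; the x axis is the distance in kb from the first base of the run, dark red bars are members, light bars weak BICR31 regions and grey bars shared or other peaks. In the upper map all 19 BICR31 peaks in the shaded span stand without a peak of another list, while in the lower map members lie between shared peaks.

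Members clustered on the tip of the short arm of chromosome 7, where 3 of the 10 longest runs lay. A run of 7 members in 155 kb covered RAC1, a small GTPase gene that drives cell migration, and DAGLB, at chr7:6329761-6484287. Its strongest member, about 6.2 kb upstream of RAC1, had a fold of 4.78 and a −log10 q of 8.34. This span held 16 BICR31 peaks, against 2 to 6 in the other 7 lists. A run of 6 members reached from RNF216 to PMS2, a mismatch repair gene, with folds of 3.91 to 5.18, and a run of 5 members lay in COL28A1, a collagen gene, with folds of 3.65 to 4.8. In the RNF216 run BICR31 had 19 peaks and the other lists 4 to 9. In the COL28A1 run it had 6 peaks and the other lists 0 or 1.

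The other long runs lay on chromosomes 5, 6, 12, 13, 14 and 18. Between KLF5 and KLF12, 6 members with folds of 2.36 to 4.12 lay at chr13:73784325-74072762, where BICR31 had 20 peaks, HCC95 5 and the other lists 1 to 3. KLF5 itself, an epithelial transcription factor gene, had no member within 50 kb of its body. In the HOXC cluster, 5 members lay at chr12:54261704-54427446 with folds of 4.09 to 4.82, beside 12 BICR31 peaks, 6 in HCC95 and 0 to 2 in the others. ARID1B, a subunit gene of the SWI/SNF chromatin remodelling complex, held 5 members with folds of 3.41 to 3.72. A run of 5 around RTTN and SOCS6, a gene that damps receptor signalling, included a member with a fold of 5.15. Further runs of 5 took in SPTSSA on chromosome 14 and ERGIC1 and ATP6V0E1 on chromosome 5. BICR31 had more peaks than each other list in all 10 spans, which the choice of members favours.

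**Figure D4:**
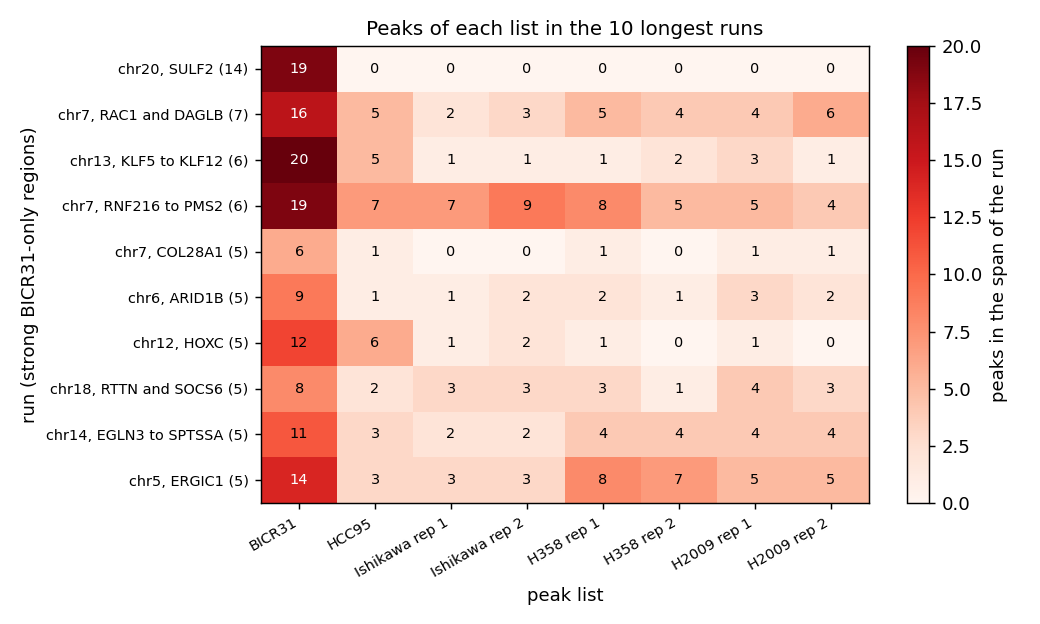
Number of peaks of each untreated list in the span of the 10 longest runs of members (rows, with the number of members in brackets; columns are lists). BICR31 had 6 to 20 peaks per span and the other lists 0 to 9, with 0 in every other list on chromosome 20.

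By chromosome, members followed the BICR31 regions with a few departures. Chromosome 1 held the most, 311 (9.17% of members, beside 9.61% of BICR31 regions). As a share of the BICR31 regions of a chromosome, members made up 10.3% on chromosome 20 (125 of 1214, 8.71 to 12.1) and 9.84% on chromosome 14 (8.44 to 11.4), against the genome-wide 8.30%. The share was 5.29% on chromosome 19 (82 of 1551, 4.28 to 6.52), 5.94% on chromosome 9 (4.93 to 7.14), 6.71% on chromosome 8 (5.65 to 7.96) and 6.81% on chromosome 17 (5.77 to 8.02). Chromosome 19 also had the lowest share of weak BICR31 regions, 16.6%, and chromosome 18 the highest, 35.9%. Copy number was not analysed here.

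**Figure D5:**
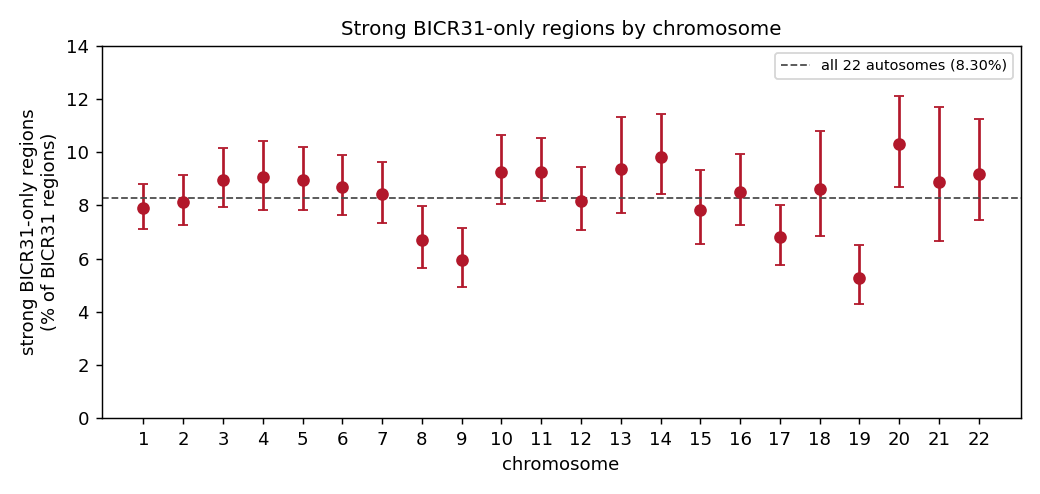
Members as a percent of the BICR31 regions of each chromosome, with 95% Wilson intervals; the dashed line is the genome-wide 8.30%. Chromosome 20 stands highest at 10.3% and chromosome 19 lowest at 5.29%.

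Within chromosomes, most windows held a few members and some held many. Of 1381 windows of 2 Mb with any region, 310 had no member, the median was 2, the mean 2.46 and the highest 25, between 6 and 8 Mb on chromosome 7. The windows described next were picked because each held 10 or more members. This choice favours shares above the genome-wide 8.30%, and the intervals do not allow for it. The 4 neighbouring windows from 0 to 8 Mb on chromosome 7 each held over 10, together 62 members of 345 BICR31 regions (18.0%, 14.3 to 22.4). These windows also held 27 of the 46 members on chromosome 7 with a −log10 q of at least 5. In the same 8 Mb, BICR31 had 345 regions, while HCC95 had 127, Ishikawa 114 in each library, H358 107 and 106, and H2009 97 and 107. Between 46 and 50 Mb on chromosome 20 there were 31 members of 155 BICR31 regions (20%, 14.5 to 27), and between 8 and 12 Mb on chromosome 3 26 of 127 (20.5%, 14.4 to 28.3). From 68 to 72 Mb on chromosome 11, where CCND1, ANO1 and CTTN lie, 23 of 162 were members (14.2%, 9.65 to 20.4). The windows with 10 or more members, 18 in all, held 230 members, or 6.78%.

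Near genes of squamous and epithelial biology, the share of members among BICR31 regions was close to that of the genome, with all 8 untreated lists used. Within 50 kb of the bodies of the 155 genes in the 7 lists lay 77 members among 918 BICR31 regions, 8.39% (6.76 to 10.4), beside the genome-wide 8.30%. This rests on the HCC95 library: without it, 127 members lay near the listed genes, while the number of all members was 4417 in place of 3391. At least 1 member lay near 56 of the genes, and the median per gene was 0. The genes of the lists were written down after the leading regions and runs had been seen, and some, such as SULF2, RAC1, PAK1 and WNT10A, with their members in view, so these counts support nothing about a list. By list, the share ran from 4.69% (3 of 64, 1.61 to 12.9) for KLF genes and MYC regulators to 12.4% (24 of 194, 8.46 to 17.7) for matrix, protease and migration genes. Basal and squamous genes had 14 of 226 (6.19%, 3.73 to 10.1), AP-1 genes 4 of 56, receptors and ligands 19 of 208, cytokines 5 of 73 and differentiation genes 9 of 104. No member lay within 50 kb of MYC, KLF5 or PARD6B.

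Among adhesion and migration genes, 4 members each lay near LAMA3, SULF2 and RAC1. Of those near RAC1, 0 lay in its body, 1 lay upstream and 3 downstream. The neighbouring gene DAGLB had 3 members within 10 kb, so nearness to RAC1 does not assign them to it. LAMA3 encodes a chain of laminin-332, the anchor of basal epithelial cells to the basement membrane. Of the 18 BICR31 regions within 50 kb of LAMA3, 7 were shared and 7 weak. Of its 4 members, 3 lay in the body, and the strongest, about 139 kb past the start at chr18:21407392-21409260, was 1869 bp wide with a fold of 4.23 and a −log10 q of 9.02. TNC, the gene of the matrix protein tenascin-C, had 2 in its body with folds of 3.15 and 4.97. PDPN, the gene of podoplanin, a surface protein of migrating squamous cells, had 1 in its body and 1 beyond its end with folds of 4.10 and 4.84.

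Receptor and ligand genes with members included EGFR and MET, the receptors for epidermal growth factor and hepatocyte growth factor. Most BICR31 regions within 50 kb of these 2 genes were shared, 10 of 15 at EGFR and 7 of 13 at MET. Every line had a region within 5 kb of both starts. Both EGFR members lay in the gene body, about 56 and 103 kb past the start, with folds of 3.62 and 3.48. A MET member in the body had a fold of 4.47 and a −log10 q of 7.56 and lay 0.286 kb from a region of another list, and a second one beyond its end 4.97 and 4.51. TGFB2, a transforming growth factor beta ligand, and TGFBR1, a receptor for this family, had 2 each, with folds of 3.76 to 5.30. JAG1, a Notch ligand, had 2 with folds of 3.29 and 3.59, one of them 0.052 kb from a region of another list. WNT10A had 3, the wide one at its end and a pair with folds of 4.30 and 4.79 on either side.

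Among transcription factor genes, KLF6 had a member on each side of its body, of 2286 and 2558 bp, with folds of 2.97 and 2.59. GRHL2, a grainyhead-like factor of epithelial junctions, had 2 about 46 and 47 kb upstream with folds of 3.81 and 4.51. Of the 13 BICR31 regions within 50 kb of GRHL2, 8 were shared. Among differentiation genes, KLK5 and its neighbour KLK7 shared the same 2 members, and KRT1, a keratin of the upper epidermis, had 2 upstream with folds of 5.22 and 4.48. LIF, a cytokine gene of the interleukin 6 family, and CXCL14, a chemokine gene of epithelia, had 2 each, with folds of 2.64 and 2.70 at LIF and 4.43 and 4.70 at CXCL14.

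The 4 further H2009 lists were not used by the rule, although they come from a line that it did use. Of the members, 25 had a peak in at least 1 of them (0.737%, 0.50 to 1.09), as against 28 of 11759 weak regions (0.238%, 0.165 to 0.344) and 4874 of 25710 shared regions (19.0%, 18.5 to 19.4). By list, the members with a peak were 8 in Empty, 12 in Control, 7 in e3KRAB1 and 1 in e3KRAB2. These lists hold 1349 to 3204 peaks, so few overlaps could be seen in any set. Members and weak regions must lack a peak in both untreated H2009 lists, while shared regions may have one. A lower share than in shared regions was therefore favoured by the rule and says nothing about BICR31.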

How the data were processed

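BWA and hg19 are named in the submitters' processing notes. The peak caller, control and pooling are not given in the sources used, although the peak names in the Ishikawa lists hold MACS. A separate peak list was deposited for each sample. Per the file layout, the deposited values per peak are a fold enrichment ratio, a −log10 p and −log10 q, and a score; the narrowPeak lists (H358, H2009) also hold a deposited summit offset, an other kind of value not used here. The Ishikawa lists hold 1 deposited score per peak. All are the authors' values, used within their own list to filter, rank or describe peaks.

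Merging, shares, Wilson intervals (95%) and runs were computed with Python 3.11.15, pandas 2.3.3 and scipy 1.17.1, after checks on simulated peak lists. The 95% intervals cover counting error only. No test across samples was made, because BICR31 has 1 library. Regions named were taken from the 10 members highest by fold, by q and by width, not all of which are named, and from the 10 longest runs. Listed genes with at least 2 members within 50 kb were named too, besides genes with a start within 1 kb of a member. Genome and annotation of hg19 were not used here: gene places are hg19 positions from general knowledge, to about 1 kb, for 222 genes, so distances to genes are approximate. Their order along each chromosome was checked against the GRCh38.p14 gene table (0 pairs out of order). The members and lists were chosen with earlier results of these data known, and the genes of the 7 lists were written down after the leading regions and runs had been seen. Promoter sequences are from RefSeq. One further list of marker genes is not reported here.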

Additional observations from a re-analysis of the deposited data

Results flagged for a closer look

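Chromosome X, which the rule leaves out, held 82 regions that meet the same conditions, 8.35% of its 982 BICR31 regions (95% Wilson interval 6.78 to 10.2), beside 8.30% on chromosomes 1 to 22. Their median width was 460 bp and their median fold 4.41.

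In the 4 further H2009 lists, 25 members had a peak although neither untreated H2009 list did. The strongest by q of these lay at chr10:4767785-4768796 (fold 4.66, −log10 q 7.80) and chr10:17104277-17105867 (fold 4.18, −log10 q 7.07).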

How the results depend on the processing

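The number of members followed the thresholds. With a −log10 q of at least 5 there were 560 members (median width 800.5 bp, median fold 4.97, 2.5% in runs of 3 or more, 22 near listed genes), and with at least 2 there were 8773 (641 bp, 3.87, 39.8%, 181, and 0.456% with a peak in a further H2009 list). When another list had to cover 50% of the BICR31 bases the count was 5770 (986 bp, 4.26, 30.4%, 143 and 3.50%), and against the higher-ranked 50% of each other list 6404 (839 bp, 4.31, 32.7%, 149 and 2.23%). Larger sets give more runs by construction. Removing regions with a peak in the further H2009 lists took that share to 0 by construction. Runs of 3 or more held 4.25% of members at 50 kb and 30.7% at 200 kb, and a flank of 10 kb left 38 members near listed genes. Cutting the BICR31 list to its 26129 highest peaks left 3391 members by construction, since every peak past the threshold is kept, so this setting says nothing about list length.

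Leaving out 1 library of another line at a time gave 3485 to 4417 members, median widths of 695 to 767 bp, median folds of 4.33 to 4.35, 13.3% to 20.6% in runs, 8.58% to 9.36% on chromosome 1, 77 to 127 members near listed genes, and 0.702% to 1.05% with a peak in a further H2009 list. The upper bounds for the count, width, runs and listed genes are those without HCC95. The chromosome 20 run kept 14 members in each of these settings. With a −log10 q of at least 5 it held 4, and the 10 longest runs together held 13. No paired analysis was possible because BICR31 has 1 library and no test across samples was made. Unknown depth limits what a missing peak shows.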
